A study of Homo sapiens with 16 samples.

Results

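A set of 10 genes of insulin and insulin-like growth factor (IGF) signaling was examined in RNA sequencing of breast cancer cells that were kept in low or high glucose. They were the receptors INSR, IGF1R and IGF2R, the receptor substrates IRS1 and IRS2, the secreted binding proteins IGFBP2, IGFBP3, IGFBP4 and IGFBP6, and the regulatory subunit PIK3R1 of phosphatidylinositol 3-kinase (PI3K). They were taken by name for their known roles, with earlier results of these data known, and all 10 were among the 18332 genes of the deposited table. The cells came from established human breast cancer lines, of which MDA-MB-231 is mesenchymal and MDA-MB-468 basal epithelial in character. The labels call both ER negative, meaning without the estrogen receptor. Low-glucose (control) flasks of each line held 5 mM glucose and high-glucose flasks, which model hyperglycemia, held 25 mM for the same 48 hours, with 4 replicates in each of the 4 groups and 16 libraries in all. Nothing else distinguished the groups of a line by label, and according to the study's methods the glucose media were given without serum, after a period in low-glucose medium, so no insulin or IGF from serum was added with them. The labels name no osmotic control for these libraries, so glucose itself and the osmolarity it adds cannot be told apart. In some other experiments of the study, mannitol was added to low-glucose controls, and it reports no difference in the phenotypes examined. The figures it cites for this show proliferation and migration, not RNA. The lines were routinely grown in different media with serum, DMEM for MDA-MB-231 and RPMI for MDA-MB-468, so the line and its routine medium cannot be told apart. The labels do not say whether replicates were separate cultures beyond the count, and p-values therefore measure only the spread between these samples, which may be technical.

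As background, insulin binds the insulin receptor, and IGF-1 and IGF-2 bind the type 1 IGF receptor, which is closely related to it. The activated receptors phosphorylate the IRS adaptors, which dock PI3K through its p85 regulatory subunits, and PI3K then activates AKT, which holds FOXO transcription factors out of the nucleus. IGF2R clears IGF-2 and carries lysosomal enzymes without signaling as a kinase, and the IGF binding proteins hold IGFs outside the cell, where proteases such as PAPPA release them. In breast epithelium this pathway is known for growth and survival signals, and IRS2 and INSR are among the genes that FOXO factors are known to activate when insulin signaling is low.

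Each library held between 14094597 and 24425916 recovered reads, and the floor of 3 reads used here was 0.123 to 0.213 CPM (reads scaled to library size). Of 4 mesenchymal genes chosen to mark MDA-MB-231, VIM, ZEB1 and FN1 were high in it, whereas SPARC was at 0.212 to 0.499 CPM on average in every group. All 6 epithelial genes chosen for MDA-MB-468 (CDH1, EPCAM, KRT5, KRT14, KRT8 and EGFR) were higher in that line. ESR1, which encodes the estrogen receptor, averaged at most 0.0840 CPM in MDA-MB-231 and 3.68 ± 0.49 and 2.70 ± 0.366 CPM (SD, n = 4) in low- and high-glucose MDA-MB-468. One low-glucose library of MDA-MB-231, replicate 4, lay farther from its group than the others did from each other, with a chi-square per gene of 3.83 to 5.20 against its partners and 2.13 to 2.66 among those. No call on the 10 genes in the glucose comparison of that line was lost or gained without it.

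To ask how much of each transcript these cells hold, levels were expressed as RPKM (CPM divided by the length of the transcript in kilobases), which allows genes of different length to be set side by side. A binding protein led in both lines, but not the same one. In low-glucose MDA-MB-231, IGFBP4 stood at 1446.4 ± 57.7 RPKM (SD, n = 4), followed by IGF2R at 26.9 ± 0.827, IGFBP6 at 18.4 ± 1.85 and IRS1 at 15.3 ± 0.498 RPKM. IRS2 (11.3 ± 0.749 RPKM) and IGFBP3 (11.1 ± 0.327 RPKM) came next with overlapping libraries, ahead of IGF1R at 8.82 ± 0.399 RPKM. INSR (4.53 ± 0.262 RPKM) and PIK3R1 (3.96 ± 0.295 RPKM) also overlapped, and IGFBP2 was last at 0.0505 ± 0.0275 RPKM, which was 1 or 2 reads per library and under the floor. High glucose left this order of means as it was in MDA-MB-231, with IRS2 and IGFBP3 again overlapping.

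In low-glucose MDA-MB-468 the order began with IGFBP3 at 269.8 ± 3.9 RPKM, IGFBP4 at 54.2 ± 1.92 RPKM and INSR at 21.9 ± 0.369 RPKM. IGF2R followed at 14.4 ± 0.428 RPKM, then IGFBP2 (11.4 ± 0.925 RPKM) and IRS1 (10.2 ± 0.462 RPKM), whose libraries overlapped, and PIK3R1 at 8.51 ± 0.605 RPKM. The libraries of IRS2 (4.47 ± 0.265 RPKM) and IGF1R (4.24 ± 0.102 RPKM) overlapped as well, and IGFBP6 was lowest at 1.68 ± 0.366 RPKM. The order of means changed in high glucose, where IGFBP2 (14.5 ± 0.984 RPKM) and PIK3R1 (12.3 ± 0.342 RPKM) stood above IGF2R (9.95 ± 0.155 RPKM), and IGF1R (4.49 ± 0.128 RPKM) stood above IRS2 (3.69 ± 0.242 RPKM). INSR (16.2 ± 0.685 RPKM) and IGFBP2 were the neighbors whose libraries overlapped there.

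**Figure D1:**
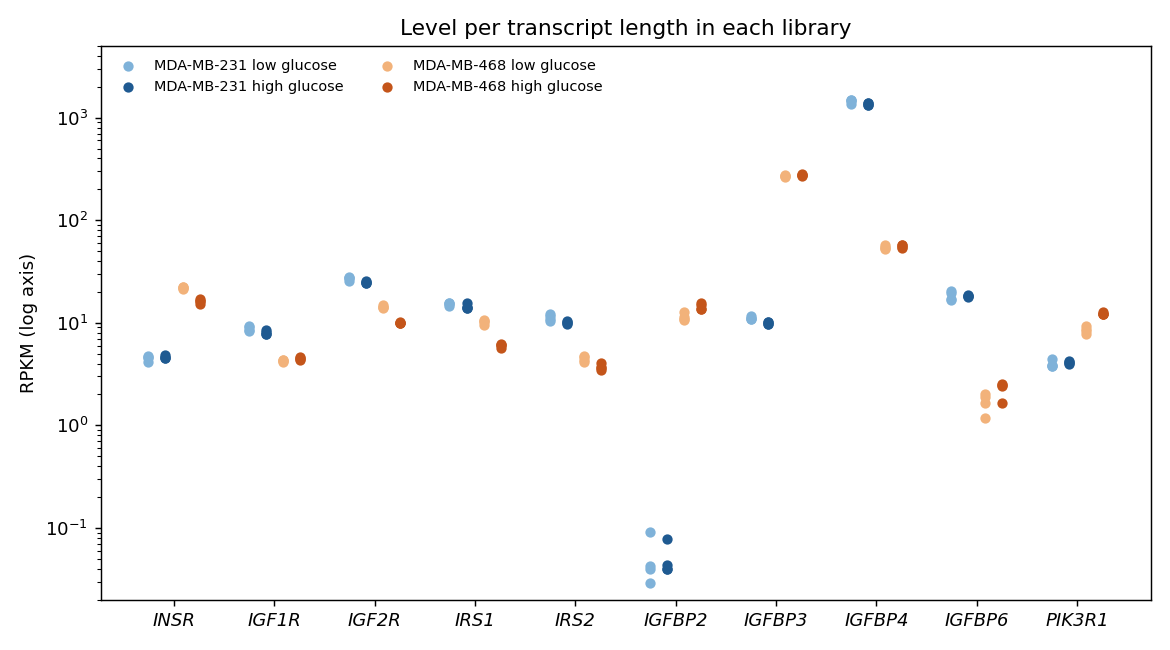
Level of each of the 10 genes in RPKM on a log axis, with 1 point for each of the 16 libraries, colored by line and glucose. IGFBP4 is the highest gene in MDA-MB-231 and IGFBP3 in MDA-MB-468, and the IGFBP2 points of MDA-MB-231 lie under 0.1 RPKM.

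Lines were compared with limma in a fit of all 16 libraries with 4 group means, on the log2(normalized reads + 1) scale, where the median of all genes was 0.081 higher in MDA-MB-468 in low glucose. All 10 genes differed between lines in low glucose, 4 higher and 6 lower in MDA-MB-468. That count has little weight by itself, since 85.4% of all genes tested passed in low glucose and 85.2% in high glucose. The sizes nevertheless ranged widely. IGFBP3 was higher in MDA-MB-468 by 4.46 ± 0.0265 (SE) and INSR by 2.13 ± 0.0402 on the log2 scale, whereas IGFBP4 was lower by a log2 difference of -4.88 ± 0.033 and IGFBP6 by -3.57 ± 0.154. Smaller differences were found for IRS2 (-1.47 ± 0.053), IGF1R (-1.20 ± 0.0388), IGF2R (-1.05 ± 0.0244), PIK3R1 (0.96 ± 0.0529) and IRS1 (-0.72 ± 0.0425). For IGFBP2 the fitted difference depends on the pseudocount, and the counts themselves were 5 reads over the 4 low-glucose libraries of MDA-MB-231 and 1123 over those of MDA-MB-468. After division by the size factors of the deposited table this is a ratio of 218, with a 95% exact interval of 93.0 to 672 that covers counting error only. In these bulk libraries, fewer cells that express a gene and less RNA per cell cannot be told apart.

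The make-up of the binding proteins is shown by their shares of the RPKM summed over the 4 IGFBP genes examined. IGFBP4 took 98.0% ± 0.067 (SD, n = 4) of the sum in low-glucose MDA-MB-231 and 98.0% ± 0.0529 in high glucose. In MDA-MB-468, IGFBP3 took 80.0% ± 0.803 and 79.1% ± 0.419, and IGFBP4 took 16.1% ± 0.568 and 16% ± 0.438. The family has other abundant members outside this sum, since IGFBP7 reached 331.5 ± 7.4 RPKM in low-glucose MDA-MB-231 and IGFBP5 reached 44.5 ± 1.41 RPKM in low-glucose MDA-MB-468. The balance of the receptors that signal also differed between the lines. INSR over IGF1R, both per length, was 0.514 ± 0.02 in low-glucose and 0.577 ± 0.0372 in high-glucose MDA-MB-231, and 5.16 ± 0.148 and 3.60 ± 0.113 in MDA-MB-468. Thus IGF1R was the more abundant transcript in every MDA-MB-231 library and INSR in every MDA-MB-468 library.

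Promoters are printed for 4 genes that moved together in MDA-MB-468, INSR, IGF2R, IRS1 and IRS2 (all lower in high glucose, described below with their values), and for IGFBP4, the most abundant of the 10 in MDA-MB-231 and the sole gene among them with a TATA box. Each line gives the 150 bases before the annotated start site on the gene's own strand, from the RefSeq promoter table of GRCh38.p14, at chr19:7294415-7294564 (minus strand), chr6:159968932-159969081 (plus), chr2:226799821-226799970 (minus), chr13:109786584-109786733 (minus) and chr17:40443300-40443449 (plus). Capitals mark the GC box GGGCGG, the E-box CACGTG and the TATA box TATAAA, on either strand.
INSR: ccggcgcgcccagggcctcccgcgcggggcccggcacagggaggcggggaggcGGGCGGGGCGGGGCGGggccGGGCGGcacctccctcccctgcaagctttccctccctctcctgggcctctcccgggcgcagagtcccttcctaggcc
IGF2R: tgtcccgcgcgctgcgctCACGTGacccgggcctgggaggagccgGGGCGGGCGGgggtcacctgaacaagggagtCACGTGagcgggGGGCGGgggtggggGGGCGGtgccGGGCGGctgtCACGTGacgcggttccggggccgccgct
IRS1: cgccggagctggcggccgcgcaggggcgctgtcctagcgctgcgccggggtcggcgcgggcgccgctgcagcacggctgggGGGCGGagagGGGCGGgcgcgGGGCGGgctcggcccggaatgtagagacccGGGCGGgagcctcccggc
IRS2: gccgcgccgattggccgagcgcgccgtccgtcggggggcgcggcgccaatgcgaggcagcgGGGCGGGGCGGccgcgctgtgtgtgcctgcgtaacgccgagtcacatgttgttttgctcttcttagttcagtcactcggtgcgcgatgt
IGFBP4: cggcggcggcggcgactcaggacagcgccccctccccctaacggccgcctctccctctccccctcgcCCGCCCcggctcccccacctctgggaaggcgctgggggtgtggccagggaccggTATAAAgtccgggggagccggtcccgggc

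All 10 genes had entries in that table, with 15 windows of 300 bases (250 before and 50 after the start), and 12 of the 15 held a GC box, against 45% of all 35116 windows. GC boxes in the INSR, IGF2R and IRS2 runs overlap one another in part. The windows of INSR, IGF1R, IGF2R, IRS1 and IRS2 were rich in G and C, at 75.7% to 79.7%, where the median of all windows was 58.7%. An E-box occurred in 7.26% of all windows and in those of IGF2R, at positions -132, -74 and -28 from the start, and IRS1, at position 36. The TATA box (11.5% of all windows) was found at position -29 of IGFBP4 alone. The FOXO motif GTAAACA was present in 3.42% of all windows and, among the 10 genes, in that of IGFBP6 at position -186. The exact letters of this motif were thus not in the INSR and IRS2 windows. Other forms of the site were not searched, so this says nothing of them or of sites elsewhere. The genes to print were chosen after their values had been seen, and all motifs other than that of FOXO after the sequences had been.

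The response to glucose was then tested in each line on its 8 libraries, as high minus low glucose, with a gene called when its limma p, adjusted by the Benjamini-Hochberg method over all genes tested, was under 0.05. Values are normalized reads, that is, reads divided by a size factor for the library, and are given in the order of replicates 1 to 4. INSR lies at chr19:7112266-7294425 on the minus strand of GRCh37 and encodes the insulin receptor. In MDA-MB-468 it measured 3191, 3307, 3241 and 3289 normalized reads in low glucose and 2316, 2542, 2487 and 2479.9 in high glucose. Every high-glucose library was below every low-glucose library, and INSR fell by 24.6% (log2 fold change -0.41 ± 0.0338 SE, adjusted p = 5.73e-08). In MDA-MB-231 the values were 769, 684, 739.8 and 782 in low glucose and 749, 782, 729 and 733 in high glucose, which overlapped, and the difference did not pass (0.01 ± 0.0501, adjusted p = 0.926). The responses of the lines differed, by -0.42 ± 0.0569 for MDA-MB-468 minus MDA-MB-231 (adjusted p = 2.81e-05).

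IGF1R, at chr15:99191768-99507759 on the plus strand, encodes the type 1 IGF receptor and responded in opposite directions in the lines, with small changes in each. MDA-MB-231 had 1939, 1815, 1787 and 1947 normalized reads in low glucose and 1779, 1610.4, 1617 and 1711 in high glucose, without overlap, and the gene fell by 10.3% (-0.16 ± 0.0424, adjusted p = 0.0186). MDA-MB-468 had 808, 795, 832 and 827 in low glucose and 849.7, 875, 916 and 885 in high glucose, again without overlap, and it rose by 8.01% (0.11 ± 0.0413, adjusted p = 0.0357). The difference of the responses was 0.27 ± 0.0548 (adjusted p = 0.00124) and was called in each of 29 alternatives, whereas the call within each line was fragile. In MDA-MB-231 it ended without low-glucose replicate 1, high-glucose replicate 2 or high-glucose replicate 3 (adjusted p = 0.0652, 0.067 and 0.0662) and after correction for transcript length (-0.09, adjusted p = 0.137). In MDA-MB-468 it ended in 9 of 22 alternatives, with adjusted p up to 0.119, among them those without low-glucose replicate 1, 2 or 4 (0.0748, 0.0776 and 0.0511) and without high-glucose replicate 3 or 4 (0.109 and 0.0676). After correction for transcript length the MDA-MB-468 difference was 0.22.

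IGF2R, at chr6:160390114-160534539 on the plus strand, was lower in high glucose in both lines. MDA-MB-468 had 3071, 3159, 3178 and 3278 normalized reads in low glucose and 2226, 2274, 2246 and 2238 in high glucose, a clear gap, and the gene fell by 29.2% (-0.50 ± 0.0308, adjusted p = 2.05e-09). In MDA-MB-231 the values went from 6802, 6594, 6313 and 6575 to 5919, 5914, 6022 and 5899, also without overlap, and it fell by 9.59% (-0.15 ± 0.0291, adjusted p = 0.00227). The fall was larger in MDA-MB-468 (difference -0.35 ± 0.0345, adjusted p = 8.89e-07). IGF2R has the longest transcript of the 10, 14061 bases, and after correction of each library for transcript length the MDA-MB-231 difference was -0.07 (adjusted p = 0.139), while that of MDA-MB-468 was called in all 22 alternatives. The pseudogene CHP1P2 lies within the locus on the same strand with 5 to 24 reads per library, and the antisense RNA AIRN overlaps it. Use of strand in counting is not given in the sources used here, so reads of IGF2R and of AIRN cannot be told apart. The same holds for IGF1R and IRS2, which antisense RNAs with no row in the table overlap, SYNM-AS1 in the case of IGF1R.

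The substrates of these receptors fell in MDA-MB-468. IRS1, at chr2:227596028-227664536 on the minus strand, couples the insulin and IGF receptors to PI3K. It showed the largest change of the 10 genes in that line on the log2 scale, from 1554, 1481, 1642 and 1588 normalized reads in low glucose to 959.5, 945, 977 and 904 in high glucose. The groups lay far apart, and IRS1 fell by 39.5% (-0.73 ± 0.0416, adjusted p = 8.79e-10). In MDA-MB-231 the low-glucose libraries had 2681, 2460.0, 2645 and 2565 and the high-glucose libraries 2614, 2331, 2366 and 2321. Replicate 1 of high glucose lay within the low-glucose range, and the difference of -0.10 ± 0.0415 was not called (adjusted p = 0.105), although it was without that library (-0.14, adjusted p = 0.023). The responses differed by -0.62 ± 0.06 between the lines (adjusted p = 7.72e-07).

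IRS2, at chr13:110405042-110438930 on the minus strand, is the other widely expressed substrate of these receptors and was lower in high glucose in both lines. MDA-MB-231 went from 1668, 1521, 1492 and 1699 to 1439, 1352, 1412 and 1378 normalized reads, without overlap, and IRS2 fell by 12.4% (-0.19 ± 0.0451, adjusted p = 0.0078). MDA-MB-468 went from 561, 603, 532 and 599 to 471, 519.98, 452 and 486, without overlap, and it fell by 15.9% (-0.25 ± 0.0579, adjusted p = 0.00195). The difference of the responses was -0.06 ± 0.075 and did not pass (adjusted p = 0.607). The ratio of IRS1 to IRS2 per length was 2.29 ± 0.22 in low-glucose and 1.64 ± 0.134 in high-glucose MDA-MB-468, with no overlap of libraries, and 1.36 ± 0.091 and 1.44 ± 0.0537 in MDA-MB-231, with overlap.

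Downstream of the substrates, PIK3R1 encodes the p85 alpha regulatory subunit that docks PI3K on phosphorylated IRS proteins and holds its catalytic subunit in check until then. The gene lies at chr5:67511568-67597649 on the plus strand. In MDA-MB-468 it measured 909, 1022, 861 and 941 normalized reads in low glucose and 1439, 1351, 1359.7 and 1386 in high glucose. All high-glucose libraries exceeded all low-glucose libraries, and PIK3R1 rose by 48.4% (0.57 ± 0.0483, adjusted p = 7.30e-08). The 8 MDA-MB-231 libraries ranged from 454 to 528 and overlapped, with a difference of 0.02 ± 0.0575 (adjusted p = 0.856). The responses differed by 0.55 ± 0.0749 (adjusted p = 2.92e-05).

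**Figure D2:**
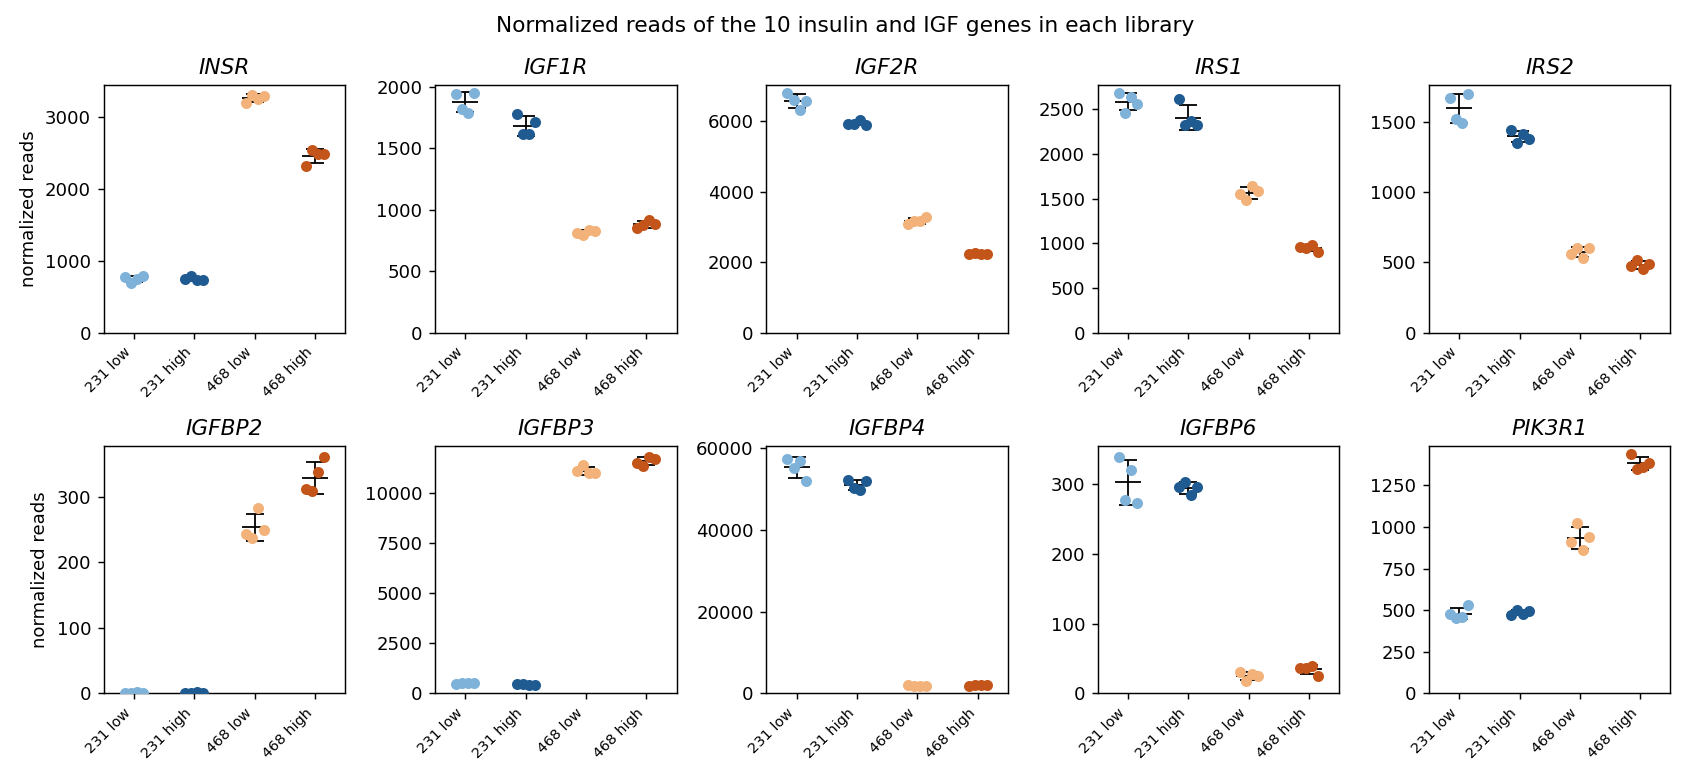
Normalized reads of each of the 10 genes in the 16 libraries, with 1 point per library, the horizontal bar at the mean and whiskers at ± 1 SD (n = 4); every vertical axis starts at 0. INSR, IGF2R and IRS1 step down and PIK3R1 steps up in high-glucose MDA-MB-468, while the steps in MDA-MB-231 are small beside the difference between the lines.

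Among the binding proteins, IGFBP3 (chr7:45951844-45961473, minus strand) encodes the main carrier of circulating IGFs and IGFBP4 (chr17:38599702-38613977, plus strand) an inhibitor of IGF action that PAPPA cleaves. In MDA-MB-231, IGFBP4 had 57431, 55107, 56866 and 51860.3 normalized reads in low glucose and 52269.8, 50368, 49701 and 52019 in high glucose. The groups overlapped at low-glucose replicate 4, and IGFBP4 fell by 7.59% (-0.11 ± 0.032, adjusted p = 0.0227). IGFBP3 went from 492, 507, 525 and 493 to 456, 448, 435 and 435 in that line, without overlap, and fell by 12.1% (-0.19 ± 0.0509, adjusted p = 0.0202). Both calls were fragile. That of IGFBP4 ended in 8 of 22 alternatives, among them without low-glucose replicate 1 or 3 (adjusted p = 0.0842 and 0.0661), without high-glucose replicate 2 or 3 (0.0655 and 0.0817) and under quantile rescaling, where its difference was -0.05 (0.0542). That of IGFBP3 ended in 5, among them without low-glucose replicate 3 (0.0594) and without high-glucose replicate 3 or 4 (0.0572 and 0.0556).

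In MDA-MB-468 neither IGFBP3 nor IGFBP4 passed. IGFBP3 had 11060.2, 11364, 10962 and 10951 normalized reads in low glucose and 11468, 11311, 11767 and 11647 in high glucose, with a difference of 0.06 ± 0.0259 (adjusted p = 0.0707), and IGFBP4 differed by 0.07 ± 0.0357 (adjusted p = 0.109). The groups overlapped for both genes. IGFBP3 passed without low-glucose or high-glucose replicate 2 (adjusted p = 0.0328 and 0.0414) and IGFBP4 without low-glucose replicate 1 (0.0489). The responses of the lines did differ for both, by 0.24 ± 0.0375 for IGFBP3 (adjusted p = 9.15e-05) and 0.19 ± 0.0466 for IGFBP4 (adjusted p = 0.0057), MDA-MB-468 minus MDA-MB-231. Under quantile rescaling the IGFBP4 value was 0.09 (adjusted p = 0.0424).

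IGFBP2, at chr2:217497551-217529159 on the plus strand, encodes a binding protein that prefers IGF-2. It could be tested for glucose in MDA-MB-468 alone, where it had 244, 237, 283 and 249.7 normalized reads in low glucose and 311, 308, 338 and 359.9 in high glucose. No library overlapped, and IGFBP2 rose by 29.9% (0.38 ± 0.0746, adjusted p = 5.22e-04). MDA-MB-231 held 5 reads over 4 low-glucose libraries and 5 over 4 high-glucose libraries, too few for a change to be detectable at this depth. In the fit of all 16 libraries, which shares 1 estimate of the spread between the lines, the MDA-MB-468 call ended (adjusted p = 0.13).

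IGFBP6, at chr12:53491220-53496129 on the plus strand, also encodes a binding protein with a preference for IGF-2 and did not pass in either line. MDA-MB-231 ranged from 273 to 339 normalized reads in low glucose and from 284 to 304 in high glucose (-0.03 ± 0.0746, adjusted p = 0.834). In MDA-MB-468, where it rested on 16 to 38 reads per library, it had 30.1, 17.7, 28 and 24.3 in low glucose and 36.9, 37.1, 38.9 and 25.3 in high glucose (0.46 ± 0.221, adjusted p = 0.0997). Replicate 4 of high glucose lay among the low-glucose values, and without it the difference was 0.60 (adjusted p = 0.0442). IGFBP6 also passed there in the fit of all 16 libraries (0.46, adjusted p = 0.0244).

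**Figure D3:**
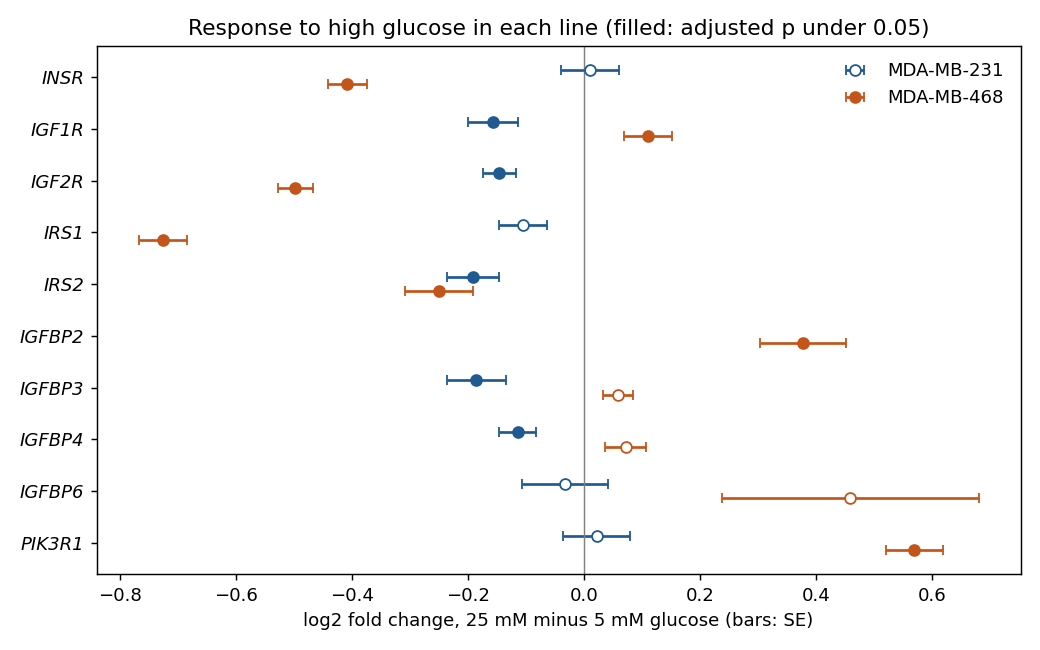
Log2 fold change of each of the 10 genes for 25 mM minus 5 mM glucose in each line, on the log2(normalized reads + 1) scale, with bars for the SE of the limma fit and filled points for an adjusted p under 0.05. INSR, IGF2R and IRS1 lie farther to the left and PIK3R1 farther to the right in MDA-MB-468 than in MDA-MB-231, and IGF1R lies on opposite sides of 0; IGFBP2 has a point for MDA-MB-468 only.

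Counted over the set, 5 of the 9 that could be tested were called in MDA-MB-231, all of them lower in high glucose, where 15.1% of all genes tested were called, 9.37% as lower and 5.71% as higher. Libraries of low and high glucose did not overlap for 4 of the 9, against 18.7% of all genes. The split of all calls in this line depends on the scaling, with 1395 lower and 850 higher as deposited, 1042 and 1216 by library size alone, and 1114 and 1027 after quantile rescaling. Under all of these scalings the 5 genes kept a negative difference, but the call of IGFBP4 ended with library size alone (adjusted p = 0.052) and with quantile rescaling (0.0542). In MDA-MB-468, 7 of 10 genes were called, 3 higher and 4 lower, and 7 of 10 had no overlap, where 47.6% of all genes were called (24.9% higher and 22.7% lower) and 42.5% had no overlap. The median log2 fold change over the 10 genes was 0.0655 in that line, beside 0.000111 over all genes tested, and -0.114 over the 9 genes in MDA-MB-231, beside 0.00175. The difference of the responses between lines was called for 7 of 10 genes, against 30.9% of all genes.

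To place these genes in their pathway, 82 genes in 11 lists by role were counted in the same fits, of which 78 were in the table. INS, IGF1, IGFALS and IGF2BP1 were not analysed here. In MDA-MB-231, 20 of 72 tested were called, 6 higher and 14 lower, with a median of -0.036, where 15.1% of all genes were called. In MDA-MB-468, 43 of 74 were called, 22 higher and 21 lower, with a median of 0.0658, where 47.6% of all genes were called. The counts of smaller groups that follow are to be read against these shares. Apart from the 10 genes themselves, 15 of 63 and 36 of 64 pathway genes were called. Without high-glucose replicate 3, the MDA-MB-231 count of all pathway genes was 13, where 1705 of 14824 genes tested were called.

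Of the ligands, IGF2 was the sole gene measured, at 4.61 ± 0.326 CPM in low-glucose MDA-MB-231 and 0.145 ± 0.0328 CPM in low-glucose MDA-MB-468, which was 2 or 3 reads per library. In MDA-MB-231 its difference was -0.02 ± 0.149 (adjusted p = 0.963). Of the 4 receptors, 2 of 3 tested were called as lower in MDA-MB-231. All 4 were called in MDA-MB-468, 1 higher and 3 lower, the last including INSRR, an orphan relative of the insulin receptor (-0.85 ± 0.34, adjusted p = 0.048). INSRR had 4 to 22 reads per MDA-MB-468 library, and its call ended in 14 of 21 alternatives, among them those that left out any 1 library other than high-glucose replicate 2 (adjusted p = 0.0605 to 0.142).

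Of the binding proteins, the 4 genes above among them, and the ternary complex, 4 of 5 tested were called in MDA-MB-231, all lower, among them IGFBP1, a binding protein that insulin is known to repress in liver (-0.19 ± 0.0523, adjusted p = 0.0189). The IGFBP1 call ended without low-glucose replicate 2 or high-glucose replicate 1 (adjusted p = 0.0707 and 0.0657). In MDA-MB-468, 2 of 5 were called, both higher. Proteases of the binding proteins and their inhibitors were called for 2 of 5 in MDA-MB-231, both lower, and for 3 of 4 in MDA-MB-468, 2 higher and 1 lower. PAPPA, the protease of IGFBP4, fell in MDA-MB-231 (-0.26 ± 0.0654, adjusted p = 0.0128), a call that ended without low-glucose replicate 1 (0.051). In MDA-MB-468, HTRA1, a secreted serine protease that cleaves binding proteins, rose by 0.65 ± 0.136 (adjusted p = 8.12e-04), and STC2, an inhibitor of PAPPA, fell by 0.63 on the log2 scale (SE 0.0351, adjusted p = 6.74e-10). The difference of responses was not called for STC2 (-0.56 ± 0.384, adjusted p = 0.297).

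Substrates and adaptors were called for 1 of 8 genes in MDA-MB-231, which was IRS2, and for 5 of 10 in MDA-MB-468, 3 higher and 2 lower. The 2 lower genes were IRS1 and IRS2, and the largest rise was that of SH2B1, an adaptor that binds the insulin receptor (0.59 ± 0.0624, adjusted p = 8.93e-07). Of 6 PI3K subunits, 1 was called in MDA-MB-231, the regulatory subunit PIK3R2 (0.34 ± 0.102, adjusted p = 0.0302), and this ended without low-glucose replicate 3 or 4 or high-glucose replicate 1, 3 or 4 (0.0601 to 0.103). In MDA-MB-468, 3 of 6 were called, PIK3R1 and 1 other higher and the catalytic subunit PIK3CA lower (-0.19 ± 0.06, adjusted p = 0.0166). The PIK3CA call ended without low-glucose replicate 2 or high-glucose replicate 4 (0.0517 and 0.0621) and after correction for transcript length (-0.10, adjusted p = 0.155).

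Phosphatases and other brakes on the pathway were called for 4 of 12 genes in MDA-MB-231, 2 higher and 2 lower, and for 7 of 13 in MDA-MB-468, 4 higher and 3 lower. TRIB3, a pseudokinase that binds AKT and is induced by stress, rose in MDA-MB-231 (0.38 ± 0.034, adjusted p = 6.05e-07). It also rose in MDA-MB-468 (0.12 ± 0.0308, adjusted p = 0.00311), with a difference of responses of -0.26 ± 0.0432 (adjusted p = 2.25e-04). PHLPP1, a phosphatase that acts on AKT, fell in MDA-MB-231 (-0.23 ± 0.0723, adjusted p = 0.0435). This PHLPP1 call ended in 14 of 22 alternatives, among them those that left out any 1 library other than low-glucose replicate 4 (0.0528 to 0.147). In MDA-MB-468 PHLPP1 rose (0.23 ± 0.0618, adjusted p = 0.00593), with a difference of responses of 0.45 ± 0.0894 (adjusted p = 9.07e-04). PIK3IP1, an inhibitor of PI3K, showed the largest rise of all pathway genes called in MDA-MB-468 (0.84 ± 0.0745, adjusted p = 1.16e-07), and SOCS1, which targets IRS proteins for degradation, fell by 0.65 on the log2 scale (SE 0.154, adjusted p = 0.00234). For SOCS1 the difference of responses was not called (-0.59 ± 0.328, adjusted p = 0.1965).

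Kinases and regulators around AKT, TSC and mTOR were called for 2 of 16 genes in MDA-MB-231 and for 10 of 16 in MDA-MB-468, 3 higher and 7 lower. In MDA-MB-231 AKT1 fell by 0.21 on the log2 scale (SE 0.0382, adjusted p = 0.00103), and EIF4EBP1, the translation repressor downstream of mTOR, rose by 0.32 ± 0.0566 (adjusted p = 8.41e-04). In MDA-MB-468 DEPTOR, an inhibitor of mTOR, rose by 0.35 ± 0.0617 (adjusted p = 1.98e-04), and AKT1S1, which encodes the mTOR inhibitor PRAS40, fell by 0.32 on the log2 scale (SE 0.0409, adjusted p = 7.42e-06). The DEPTOR difference in MDA-MB-231 was 0.52 ± 0.194 and not called (adjusted p = 0.0809). Its difference of responses was not called either (-0.18 ± 0.225, adjusted p = 0.607). FOXO and GSK3 genes gave 0 calls of 5 with limma in MDA-MB-231 (2 at an unadjusted p under 0.05) and 0 with edgeR or DESeq2, and 3 of 5 with limma in MDA-MB-468, where FOXO3 rose (0.15 ± 0.0307, adjusted p = 8.93e-04) and FOXO4 fell (-0.59 ± 0.0744, adjusted p = 6.14e-06).

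Genes known as FOXO targets, a list that holds INSR and IRS2 as well, were called for 4 of 12 in MDA-MB-231, 2 higher and 2 lower, and for 8 of 12 in MDA-MB-468, 4 higher and 4 lower. SESN3, a stress-responsive regulator of mTOR, fell in MDA-MB-231 (-0.27 ± 0.0601, adjusted p = 0.00465) and rose in MDA-MB-468 (0.27 ± 0.0459, adjusted p = 1.44e-04), with a difference of responses of 0.54 ± 0.0749 (adjusted p = 3.27e-05). In MDA-MB-231 the receptor ERBB3 rose (0.27 ± 0.0814, adjusted p = 0.0301). The ERBB3 call ended without low-glucose replicate 1 or 4 or high-glucose replicate 1, 2 or 4 (0.0507 to 0.0948). ERBB3 also rose in MDA-MB-468 (0.21 ± 0.0417, adjusted p = 6.70e-04), and the difference of responses was not called (-0.07 ± 0.0756, adjusted p = 0.536). In MDA-MB-468 KLHL24, a substrate adaptor of ubiquitin ligases, fell by 0.59 on the log2 scale (SE 0.0622, adjusted p = 9.31e-07), and PIK3IP1, given above, was the largest rise. In MDA-MB-231 KLHL24 rose (0.16 ± 0.0454, adjusted p = 0.0235), a call that ended in 8 of 22 alternatives, among them those without low-glucose replicate 1 or 2 or high-glucose replicate 1, 2 or 3 (0.0518 to 0.0871), and the difference of responses was -0.75 ± 0.082 (adjusted p = 3.07e-06). IGF2BP3, which binds IGF2 mRNA, was lower in MDA-MB-231 (-0.15 ± 0.0464, adjusted p = 0.0372) and higher in MDA-MB-468 (0.29 ± 0.0479, adjusted p = 9.11e-05), with a difference of responses of 0.44 ± 0.0682 (adjusted p = 9.53e-05). Its call in MDA-MB-231 ended in 12 of 22 alternatives, among them those without low-glucose replicate 3 or 4 or high-glucose replicate 1, 3 or 4 (0.0704 to 0.131).

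**Figure D4:**
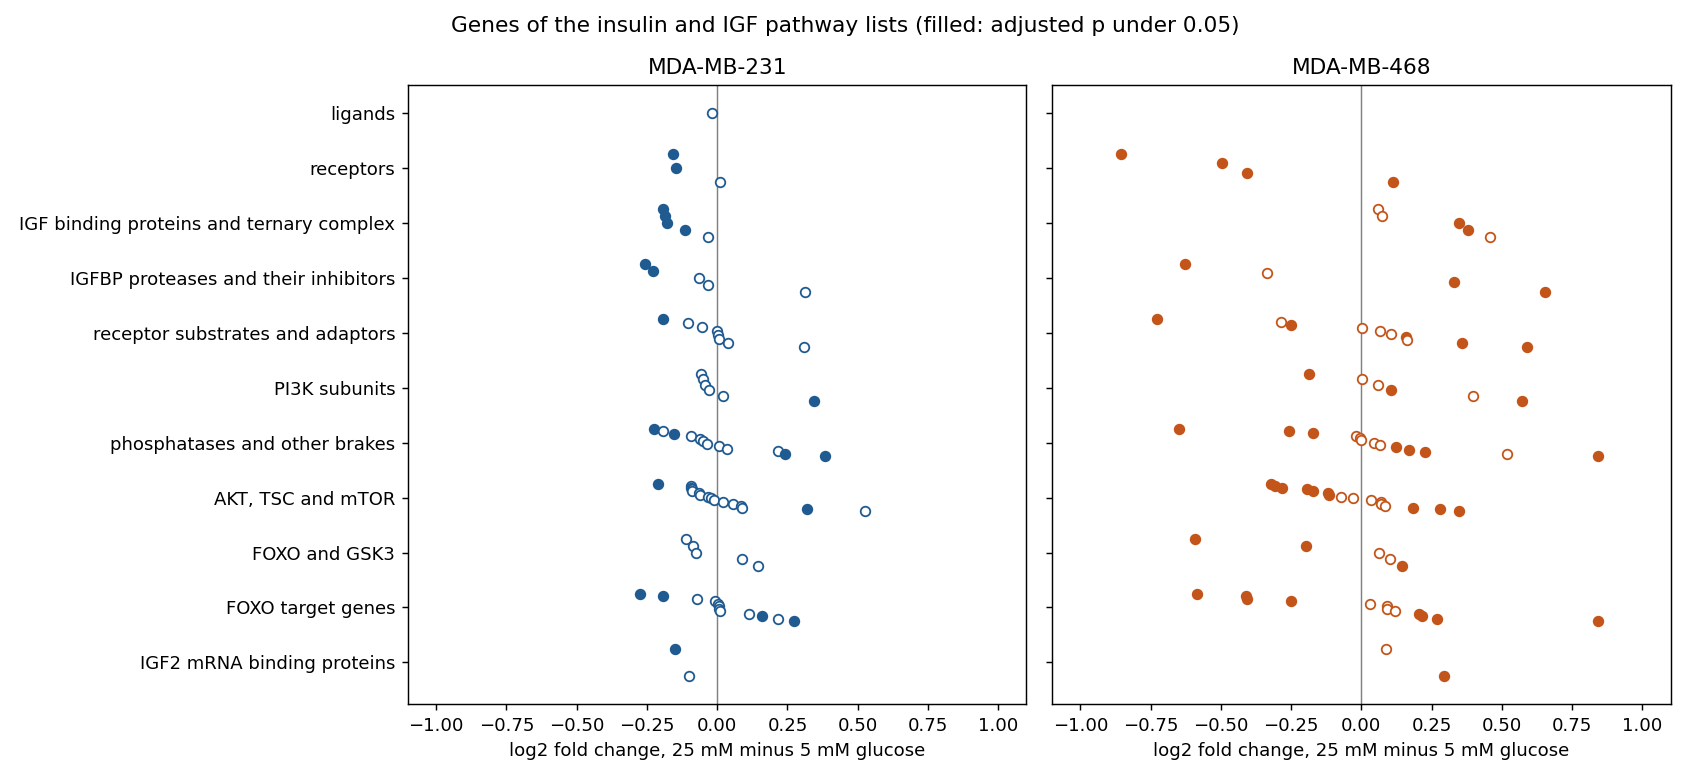
Log2 fold change for 25 mM minus 5 mM glucose of each tested gene in the 11 pathway lists, MDA-MB-231 on the left and MDA-MB-468 on the right, with filled points for an adjusted p under 0.05. Called binding proteins lie left of 0 in MDA-MB-231 and right of 0 in MDA-MB-468, and the largest rise in MDA-MB-468 is PIK3IP1 at 0.84, plotted in the 2 lists that hold it.

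As a description of shared patterns, each of INSR, IGF1R, IRS1 and IRS2 was correlated with 9881 genes of at least 5 CPM on average in both lines, over the 16 libraries after the mean of each line had been taken away. The points share libraries and the same pair of glucose groups. INSR was closest to DZIP3 (Pearson r = 0.978) and ANTXR1 (0.974), and IRS1 to SLC7A2 (0.986), an amino acid transporter, and ADNP2 (0.982). IRS2 was closest to the mitochondrially encoded MT-ND5 (0.963) and MT-ND4L (0.949). IGF1R had lower values, 0.916 with FARP1 and 0.885 with BCL2, an inhibitor of apoptosis.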

How the data were processed

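The study's methods name Trimmomatic, TopHat and hg19 for its tumor libraries and do not say whether the cell line libraries were handled alike, and the submitters' processing notes name hg38 and edgeR. The counting program is not given in the sources used here. The deposited values are a normalized signal, reads divided by a size factor per library. With a tolerance of 0.01, 100% of values were whole multiples of 1 read, so reads were recovered. Floors and count intervals cover counting error only. A transcript length was found for 17418 of 18332 gene IDs (GENCODE lifted to GRCh37).

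After a filter that asked for 0.5 CPM in 2 fitted libraries, genes were tested with limma 3.58.1 (trend, two-sided, Benjamini-Hochberg) in R 4.3.3 on log2(value + 1), a scale that understates changes of low genes. This left 14884 genes in MDA-MB-231, 15757 in MDA-MB-468 and 17115 over all 16 libraries. Scripts were tested on simulated data. Alternatives were pseudocounts of 0.5 and 5, other filters and scalings, edgeR 4.0.16 and DESeq2 1.42.0 on recovered reads, unmoderated models, 1 fit of all libraries, a replicate block, a transcript length correction and leaving out each library. Same-numbered libraries did not deviate together (correlations -0.271 to 0.0862), so numbers were not taken as pairs.

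Named were the 10 genes, the called gene with the largest rise and fall of each pathway list in each line, and the 2 genes most like 4 of the 10. Genes and lists were chosen with earlier results of these data known, and 1 result is not reported here. RefSeq protein sequences were not used here.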

Additional observations from a re-analysis of the deposited data

Results flagged for a closer look

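The responses to high glucose of 7 of the 10 genes differed between the lines by the interaction contrast of the limma fit over 16 libraries, where 30.9% of all genes tested were called. Values are the MDA-MB-468 minus the MDA-MB-231 log2 fold change. The difference was positive for PIK3R1 (0.548), IGF1R (0.268), IGFBP3 (0.245) and IGFBP4 (0.186), and negative for IRS1 (-0.621), INSR (-0.418) and IGF2R (-0.352).

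A single library stood apart from the other 3 of its group in 4 of 40 groups checked, where chance gives about 1 in 20, by a gap to its nearest neighbor above Dixon's 95% critical value for 4 samples. IRS1 was at 2614 normalized reads in high-glucose MDA-MB-231 replicate 1 (gap 0.846 of the range) and IGF2R at 6022 in replicate 3 of that group (0.837). IGFBP2 was at 1.86 normalized reads in the same replicate 3 (0.889), which is 2 reads and under the floor. IGFBP6 was at 25.3 in high-glucose MDA-MB-468 replicate 4 (0.855).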

How the results depend on the processing

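The counts of the 10 genes called in MDA-MB-468 (6 to 8 over all alternatives), in the difference of responses (7 or 8) and between lines in low glucose (10 in each) stayed near their values, and so did the 43 pathway genes called in MDA-MB-468 (38 to 44). In MDA-MB-231 the 5 genes called became 2 without moderation of the variance, 3 after the transcript length correction and 3 with the replicate block and that correction together. Leaving out 1 library there gave 2 to 6 genes: 3 without low-glucose replicate 1 or 3 or high-glucose replicate 2, and 2 without high-glucose replicate 3. The 20 pathway genes called in that line became 11 without moderation, and 13 to 20 when 1 library was left out, with 13 without high-glucose replicate 3. Calls over all genes in MDA-MB-231 moved as well, from 2245 of 14884 to 1297 without moderation. They were 2201 of 14289 after the length correction and 1767 with the block added to it. Leaving out 1 library gave 1629 to 2389 of all genes, with 1705 of 14824 without high-glucose replicate 3. With the replicate block alone, 4 of the 10 genes were called in MDA-MB-231 (IGFBP3 was lost, adjusted p = 0.0552), 6 in MDA-MB-468 (IGF1R was lost, 0.0516) and 7 in the difference of responses. Beside these, 1624 and 7383 of all genes were called within the lines and 5062 of 17115 in the difference of responses. Of the other pathway genes named, IGFBP1, PAPPA, PIK3R2, KLHL24 and IGF2BP3 in MDA-MB-231 lost their calls in the fit of all 16 libraries (adjusted p = 0.871, 0.637, 0.406, 0.0893 and 0.0554). DEPTOR and STC2 in MDA-MB-468 lost theirs in that fit too (0.0926 and 0.0756). Without moderation, IGFBP1, PAPPA, PIK3R2, KLHL24, IGF2BP3, PHLPP1 and EIF4EBP1 lost theirs in MDA-MB-231 (0.1036, 0.0923, 0.2494, 0.0776, 0.1496, 0.0951 and 0.0582), and INSRR in MDA-MB-468 (0.0575). Of the 10 genes, IGF1R, IRS2 and IGFBP4 lost their MDA-MB-231 calls without moderation (0.1035, 0.0781 and 0.1289). The falls of INSR, IGF2R, IRS1 and IRS2 in MDA-MB-468 were called in all 22 alternatives, but their sizes varied. The log2 fold change ranged from -0.438 to -0.318 for INSR and from -0.528 to -0.372 for IGF2R. It ranged from -0.756 to -0.633 for IRS1 and from -0.286 to -0.174 for IRS2. No library correlated best with its own number.

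Signs changed for small uncalled differences in MDA-MB-231. Leaving out 1 library gave -0.0294 to 0.0351 for INSR, -0.0793 to 0.0242 for IGFBP6 and -0.00294 to 0.0699 for PIK3R1. Why these values moved was not tested. Depth limited IGFBP2 in MDA-MB-231, at 1 or 2 reads per library, and IGFBP6 in MDA-MB-468, at 16 to 38.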
